A study of Homo sapiens with 12 samples.

Results

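The peptidylarginine deiminases PADI4, PADI2 and PADI3 are 3 of the 60660 genes with values in both deposited tables, matched by gene symbol, and with PADI1 and PADI6 they make up the 5 genes of the family. They were followed in 12 RNA-seq libraries of HL-60, an established human promyelocytic leukaemia cell line, with 3 libraries in each of 4 groups: cells transduced with a control vector, cells transduced with a vector that expresses JMJD3, parental cells, and cells with a JMJD3 knockout. JMJD3, the product of KDM6B, is a demethylase of histone H3 that takes the repressive methyl mark off lysine 27. The labels give neither the promoter of the vector nor the number of clones behind the knockout, and nothing says that the replicates came from separate cultures, so the spread between libraries may be technical. The 3 genes were chosen by their measured counts and FPKM in all 4 groups of these libraries, so their levels and fold changes in either comparison are given as a description without a test.

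Peptidylarginine deiminases convert arginine in proteins to citrulline, which removes a positive charge, and they need calcium for activity. PADI4 is known from granulocytes, where it enters the nucleus, citrullinates histones and takes part in the release of neutrophil extracellular traps (NETs). PADI2 is the most widely expressed member of the family, PADI1 and PADI3 act in skin and hair follicles, and PADI6 is a protein of the oocyte.

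The 5 genes lie beside each other on chromosome 1 (GRCh38, GENCODE 29). PADI2 occupies 17066761 to 17119435 on the minus strand, and on the plus strand follow PADI1 (17205126 to 17246005), PADI3 (17249098 to 17284233), PADI4 (17308195 to 17364004) and PADI6 (17372196 to 17401699). None of the 5 overlaps an annotated gene on the opposite strand, which matters because the library kit does not mark strand. The start regions of PADI4 and PADI2 are shown because these were the members that passed the filter on low counts, with fold changes on overexpression far apart. Each runs from 250 bases before the RefSeq start (GRCh38.p14) to base 30 after it, 5′ to 3′ on the gene's own strand, PADI4 at chr1:17307947-17308226 (plus) and PADI2 at chr1:17119422-17119701 (minus). Capitals mark an AP-1 site (TGANTCA) and a TATA box (TATAAA) in PADI4, and GC boxes (GGGCGG, on either strand) in PADI2.
PADI4: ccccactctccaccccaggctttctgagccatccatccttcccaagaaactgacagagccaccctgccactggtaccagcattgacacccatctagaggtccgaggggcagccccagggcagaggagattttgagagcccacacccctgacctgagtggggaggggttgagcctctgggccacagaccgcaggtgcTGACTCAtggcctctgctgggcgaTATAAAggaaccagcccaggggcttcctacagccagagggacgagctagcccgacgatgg
PADI2: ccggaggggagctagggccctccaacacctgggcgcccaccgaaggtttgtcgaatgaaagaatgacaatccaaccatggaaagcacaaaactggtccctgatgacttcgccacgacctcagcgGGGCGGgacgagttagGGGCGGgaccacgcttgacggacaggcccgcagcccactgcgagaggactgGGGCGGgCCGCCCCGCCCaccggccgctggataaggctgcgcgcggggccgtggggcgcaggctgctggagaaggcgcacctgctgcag
Of 10 motifs searched on both strands of the 300-base windows, 2 were found in PADI4, the TATA box at base -30 and the AP-1 site at base -54, counted back from the start. The TATA box letters occur in 12% and the AP-1 letters in 7.76% of 27305 promoter windows of this length. PADI2 held 6 GC boxes, 5 of them in the printed stretch, where those at bases -52 and -47 share 1 base, and 44.6% of all windows hold at least 1. The PADI2 window had 28 CpG dinucleotides and the PADI4 window 7, against a median of 14. The remaining motifs (E-box CACGTG, PU.1 core GAGGAA, C/EBP TTGCNNAA, EGR GCGTGGG, STAT TTCNNNGAA, the NF-kB site and CCAAT) matched neither window. A match describes letters and is not a measured binding site.

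By counts the targeted gene followed the labels. KDM6B stood at 33.2, 32.8 and 23.9 CPM (counts scaled to the library total) in vector cells and at 102.1, 104.0 and 89.2 CPM on overexpression (log2 fold change 1.57 ± 0.148 SE, edgeR quasi-likelihood adjusted p 0.000129). In parental cells it stood at 56.4, 56.6 and 59.6 CPM and in the knockout at 36.7, 45.4 and 36.8 CPM (-0.53 ± 0.0698, adjusted p 2.44e-05). By FPKM the knockout libraries stood at 6.31, 11.4 and 6.14 and the parental ones at 11, 11 and 10.4, so knockout replicate 2 lay above every parental library on that scale. The sources used here do not give the deleted stretch, so knockout reads may come from outside it, and KDM6B overlaps 1 gene on the other strand. Libraries held 26861291 to 43647697 expected counts. In the overexpression table the third replicates stood apart, with a chi-square per gene of 30.6 to 39.6 to the others of their group, against 1.67 and 1.95 between replicates 1 and 2.

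PADI4 was close to the detection limit in 3 groups and well expressed in the other, the cells that overexpress JMJD3. Vector libraries held 0, 7 and 5 counts of PADI4, overexpressing libraries 832, 914 and 921, parental libraries 8, 20 and 12, and knockout libraries 13, 9 and 7. In CPM this was 0, 0.222 and 0.132 in vector cells and 29.6, 28.5 and 23.6 on overexpression. Every overexpressing library thus lay above every library of the other groups, and replicate 3 was the lowest of the 3. The summed counts of 12 and 2667 gave a ratio of 215.7 (95% counting interval 123.3 to 418.0), and the fitted log2 fold change was 7.59 ± 0.34, the 23rd largest rise among 14322 genes tested. Without vector replicate 2, which held 7 of the 12 vector counts, it was 8.27, and the other libraries left out gave 7.13 to 7.69; without the third replicates it was 7.74. By deposited FPKM (fragments per kilobase of transcript, scaled to the depth of the library), overexpressing cells stood at 25.3 ± 4.43 (SD, n = 3), above 69.2% of the genes tested, and vector cells at 0.333 ± 0.289, above 9.68%. The authors' deposited table gives PADI4 a log2 fold change of 5.79 for this comparison. In bulk RNA, more cells with PADI4 RNA and more of it per cell cannot be told apart.

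In the other comparison PADI4 stood at 0.216, 0.574 and 0.275 CPM in parental cells and at 0.44, 0.266 and 0.245 CPM in knockout cells. These ranges overlap. It did not pass the filter on low counts, and the summed counts of 40 and 29 gave a knockout to parental ratio of 0.912 (95% counting interval 0.545 to 1.51), so a change smaller than those bounds was not detectable at this depth. Ordered by mean CPM, overexpressing cells (27.2 ± 3.20) came first, then parental (0.355 ± 0.192), knockout (0.317 ± 0.107) and vector cells (0.118 ± 0.112). Parental and knockout cells did not differ beyond their spread, and knockout and vector ranges lay side by side, with the lowest knockout library at 0.245 and the highest vector library at 0.222 CPM. Levels set across the tables rest on the library total alone.

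PADI2, in contrast, was measured at about the same level in all 12 libraries. Vector libraries stood at 4.36, 3.88 and 4.16 CPM and overexpressing libraries at 4.59, 3.9 and 4.1 CPM, so the ranges overlapped. The fitted log2 fold change was -0.12 ± 0.12 (95% interval -0.36 to 0.11). Under library-total scaling, which moved the median of all genes by 0.14, it was 0.02, and without the third replicates -0.08. Parental libraries stood at 4.34, 3.9 and 3.71 CPM and knockout libraries at 4.4, 4.94 and 4.8 CPM. By CPM the knockout libraries were all above the parental ones, by a small margin, with a log2 fold change of 0.25 ± 0.134 (95% interval -0.01 to 0.52). By FPKM the ranges overlapped, at 1.53, 1.18 and 1.16 in parental and 1.4, 1.55 and 1.62 in knockout libraries.

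PADI3 was at the edge of detection. It had 0, 2 and 1 counts in vector, 1, 6 and 2 in overexpressing, 2, 0 and 1 in parental and 4, 3 and 4 in knockout libraries. It passed the filter in neither comparison. The summed ratios were 2.91 (95% counting interval 0.727 to 16.7; 3 and 9 counts) on overexpression and 4.61 (1.22 to 25.8; 3 and 11 counts) on knockout, where each knockout library held more counts than each parental one. Fitted without the filter, which takes in the spread between libraries, the log2 fold changes were 1.32 (95% interval -0.83 to 3.47) and 2.07 (-0.13 to 4.27), so both intervals held 0. PADI1 and PADI6 had 1 count each, both in overexpressing libraries, and 0 in the remaining ones. A count of 0 allowed up to 0.0312 CPM in vector, 0.026 in parental and 0.0327 in knockout cells, summed over a group of 3 libraries, and the single counts on overexpression allowed up to 0.0562 CPM for each gene (upper bound of the 95% Poisson interval). These intervals and limits cover counting error only.

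**Figure D1:**
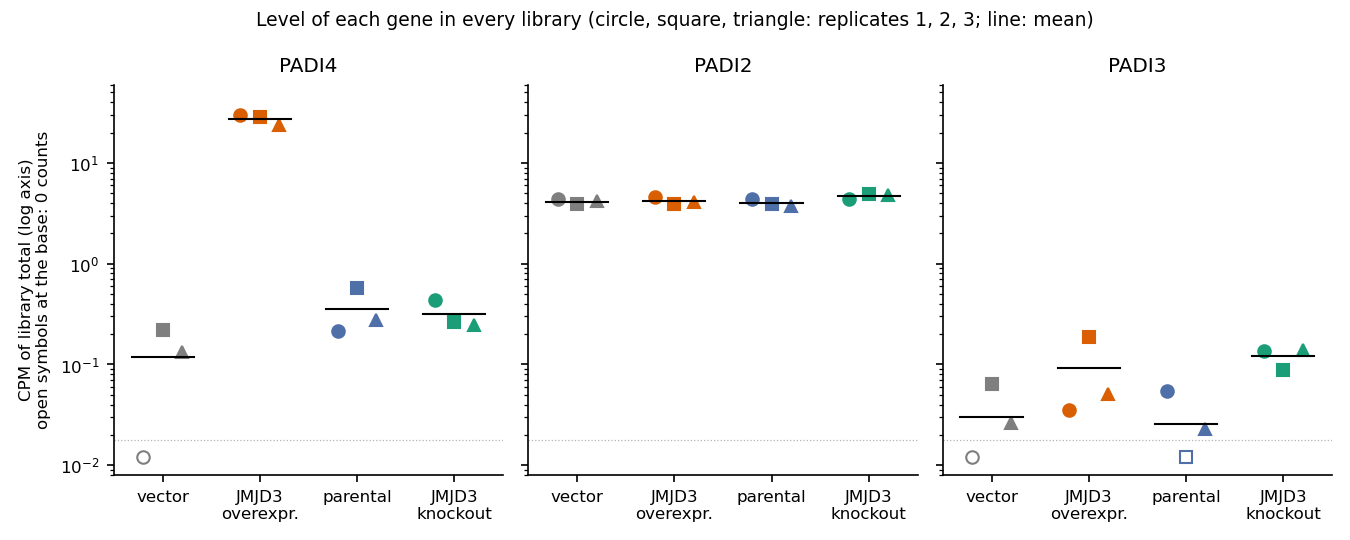
CPM of the library total, on a log axis, of PADI4, PADI2 and PADI3 in each of the 12 libraries, with the group mean as a line and libraries without counts as open symbols at the base. PADI4 sits at 23.6 to 29.6 CPM in overexpressing cells and at 0.574 CPM or below elsewhere, PADI2 lies between 3.71 and 4.94 CPM in every library, and PADI3 reaches at most 0.187 CPM.

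The make-up of the family therefore differed between overexpressing cells and the rest. Per length, PADI4 made up 94.2% to 95.1% of the summed FPKM of the 5 genes in overexpressing libraries. In vector libraries its share was 0%, 26.2% and 25.8%, in parental libraries 24.2%, 49.5% and 15.2%, and in knockout libraries 31%, 15.1% and 6.84%. By counts, which are not divided by length, the shares were 85% to 87.4% on overexpression, 0%, 5.34% and 3.05% in vector, 4.68%, 12.8% and 6.86% in parental and 8.84%, 5.03% and 4.73% in knockout libraries; outside overexpression the shares per length rest on 20 PADI4 counts or fewer a library and on implied lengths that scatter widely. PADI2 held most of the remainder: its FPKM was 1.47 ± 0.118 in vector, 1.38 ± 0.164 in overexpressing, 1.29 ± 0.209 in parental and 1.52 ± 0.114 in knockout cells. The ratio of PADI4 to PADI2 FPKM was 16.8 to 20.3 on overexpression and at most 0.981 in any other library.

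The deposited counts and FPKM together also carry a transcript length, because FPKM divides the count by the mean effective length of the transcripts assigned. For genes with a single annotated transcript this recovered the GENCODE 29 length with a median error of 0.000112% in the first vector library. For PADI4 the implied mean length was 1311, 1242 and 1429 nt in overexpressing cells, or 54.8% to 63% of its longest transcript, PADI4-201 (2267 nt, protein coding). Its other annotated transcripts are 841, 513, 471 and 373 nt long. If only these 5 exist, PADI4-201 made up 33% to 49.5% of the molecules and 63.4% to 95.3% of the counts in overexpressing replicate 1, and 28.1% to 45.9% and 41.2% to 55.7% of the molecules in replicates 2 and 3. A shortened mean was no exception among genes: across other coding genes with several transcripts the median was 67.6% to 70% of the longest in these libraries, and 31.2% to 40.2% of them lay below PADI4.

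In the other groups the implied length of PADI4 rested on 20 counts or fewer. It was 753 and 581 nt in the vector libraries with counts, 696, 755 and 1592 nt in parental and 938, 1218 and 2267 nt in knockout libraries. In knockout replicate 3 all 7 counts were therefore assigned to PADI4-201. In vector replicate 2 PADI4-201 made up at most 20.1% of the molecules assigned. PADI2 had an implied length of 2947 to 3553 nt in all libraries, against a longest transcript of 4345 nt, and overexpressing and vector libraries overlapped. PADI3 has a single annotated transcript of 3189 nt, which was recovered exactly. The single PADI1 count matched 3124 nt, the length of a retained-intron transcript (PADI1-202), and not the coding one of 3846 nt.

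**Figure D2:**
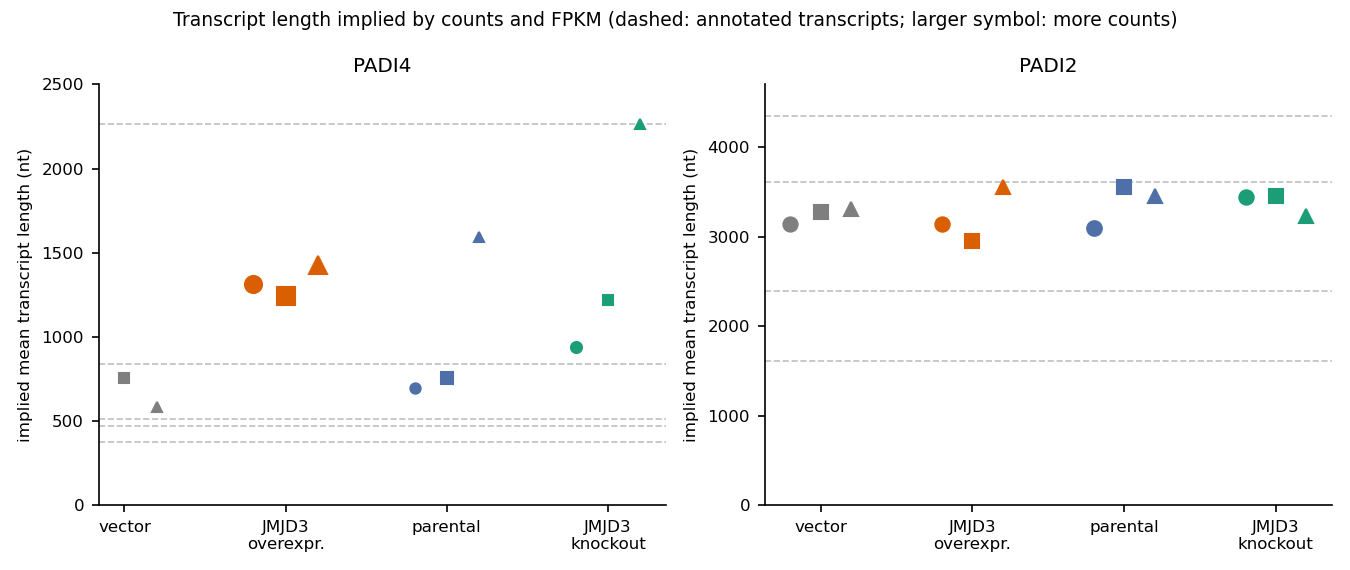
Mean transcript length in nt implied by count and FPKM for PADI4 and PADI2 in each library, with annotated transcript lengths as dashed lines and larger symbols for more counts. The well-covered PADI4 values on overexpression lie between 1242 and 1429 nt, the sparse values elsewhere scatter from 581 to 2267 nt, and PADI2 stays between 2947 and 3553 nt.

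Genes beside the cluster are given as a description. PADI4 was chosen with its values known, so its distance from them is no test. Within 500 kb of either side 37 further genes are annotated and 10 passed the filter. On overexpression 3 rose (26.4% of all genes did) and 3 fell (23.9%), between -1.10 and 1.98 on the log2 scale. ACTL8, an actin-like gene, fell from 218.4 ± 10.5 to 102.0 ± 3.90 TMM-scaled CPM (-1.10 ± 0.0703, edgeR adjusted p 2.04e-05), RCC2, a regulator of chromosome condensation and mitosis, fell by 0.46 (adjusted p 0.00234) and SDHB, a subunit of succinate dehydrogenase, fell by 0.22 (adjusted p 0.0432, and 0.422 under library-total scaling). CROCC, the rootletin of the ciliary root, rose by 0.95 ± 0.143 (adjusted p 0.00117). The pseudogenes MST1P2 and MST1L rose by 1.98 and 1.42, to 1.57 ± 0.282 and 1.24 ± 0.0422 CPM; as near-copies of MST1 they are uncertain. With the replicate number as a block NBPF1 and CROCCP2 also passed (adjusted p 0.000859 and 0.0115), 8 called in all, against 5 with replicates 1 and 2 summed. On knockout 2 rose (17.6% of all genes did) and 3 fell (20.2%): ARHGEF10L, a guanine nucleotide exchange factor, fell from 6.33 ± 0.275 to 1.57 ± 0.304 CPM (-2.01 ± 0.16, adjusted p 5.59e-08), NBPF1, a multicopy gene and uncertain, fell by 0.60, and CROCC fell by 0.34 (adjusted p 0.0195, and 0.163 from replicates 1 and 2 alone). ACTL8 and ATP13A2, a lysosomal cation transporter, rose by 0.41 and 0.32.

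**Figure D3:**
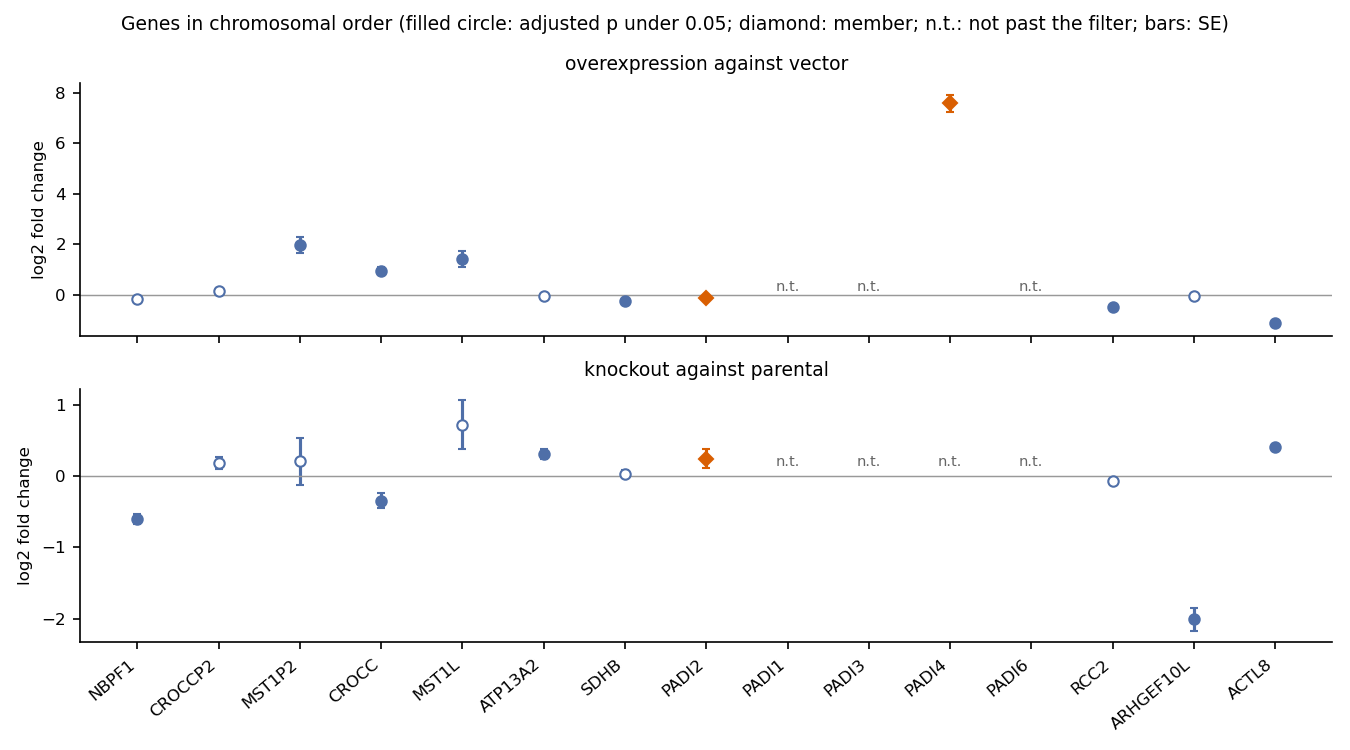
log2 fold change with SE of the genes around the PADI cluster that passed the filter, in chromosomal order, for overexpression against vector (top) and knockout against parental (bottom). PADI4, chosen with its values known, stands at 7.59 beside neighbours between -1.10 and 1.98, and PADI2 lies near 0 in both comparisons.

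The genes that act with or on the family were counted in lists, named by their smallest p. For every list, the shares over all genes were 26.4% risen and 23.9% fallen on overexpression. On knockout they were 17.6% risen and 20.2% fallen. Of 142 listed pathway genes outside the 3 members, 118 were tested on overexpression, where 35 rose and 37 fell (61% called; 50.3% of all genes), and 112 on knockout, where 32 rose and 25 fell (50.9%; 37.8% of all genes). Under library-total scaling the overexpression split was 45 risen and 24 fallen, as the share of risen genes among all called genes moved from 52.5% to 68.5%.

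Proteins of NETs and of the steps before them, from the oxidase and granule proteases to histone partners, moved in both directions on overexpression. Of 27 tested, 16 rose and 6 fell (median log2 fold change 0.59; 0.00 over all genes). S100A9, which with S100A8 forms the calprotectin found on NETs, went from 35.3, 36.1 and 35.4 to 900.5, 883.6 and 863.9 TMM-scaled CPM (4.63 ± 0.0666, adjusted p 6.68e-08), and S100A8 rose by 5.43 ± 0.0914. The adhesion integrin subunits ITGAM and ITGB2 rose by 3.39 ± 0.0957 and 2.39 ± 0.0694 (adjusted p 1.17e-06 for each). Granule proteins moved in both directions. Of those of the azurophil granules, MPO fell from 17828.4 ± 2109.9 to 8608 ± 469.3 CPM and CTSG by 2.09 ± 0.0938. MMP9 of the gelatinase granules rose from 0.045 ± 0.0779 to 2.41 ± 0.488 CPM (edgeR adjusted p 0.000235). Of the specific granules, CAMP rose from 0.156 ± 0.14 to 0.668 ± 0.167 CPM (edgeR adjusted p 0.0284). LTF and LCN2, also of the specific granules, did not pass the filter, at 0.00908 and 0.109 CPM in vector and 0 and 0.0837 CPM in overexpressing cells. Neutrophil elastase, the protease known to cut histones in NETs, was nearly absent, with ELANE at 0.0729 ± 0.0736 CPM in vector and 0.00804 ± 0.0139 CPM in overexpressing cells. The list shares 8 of its 31 genes (25.8%) with the late neutrophil markers (30.8% of theirs) and 5 (16.1%) with the promyelocyte markers (50% of theirs).

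On knockout 9 of 24 tested NET genes rose and 7 fell (median 0.01). RIPK3, a kinase of necroptosis, fell from 3.43, 3.7 and 3.27 to 0.0687, 0.0884 and 0.0351 CPM (-5.65 ± 0.323, edgeR adjusted p 8.91e-10), the groups lying far apart. With 399 counts in parental and 6 in knockout libraries, RIPK3 passed the filter through the parental ones and could only be called fallen. CTSG fell by 0.74 ± 0.0832 and NCF4, an oxidase subunit, rose by 0.32 ± 0.0434. S100A9 fell by 0.51 ± 0.079 (adjusted p 0.000133).

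Known substrates of the deiminases fell more often than they rose on overexpression. Of 28 tested, 5 rose and 14 fell (median -0.25), with 6 risen and 9 fallen under library-total scaling and 8 fallen with replicates 1 and 2 summed. The chemokine CXCL8, which citrullination is known to modify, rose by 4.23 ± 0.166 and the filament protein vimentin (VIM) from 29 ± 1.94 to 100.8 ± 4.69 CPM (adjusted p 4.88e-06). DNMT3A, ING4 and ACTB also rose (0.81, 0.59 and 0.20). The nucleolar protein NPM1 fell by 0.90 ± 0.059 and calreticulin (CALR) by 0.95 ± 0.0733. On knockout 13 of 28 rose and 3 fell (median 0.09), with 7 risen from replicates 1 and 2 alone. VIM fell from 46.6 ± 1.17 to 22.8 ± 0.922 CPM (-1.03 ± 0.0586, adjusted p 8.91e-10), DNMT3A fell by 0.74 ± 0.0724 and HNRNPA1 by 0.13, while CALR rose by 0.38 ± 0.0544.

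Among transcription factors and chromatin partners known to control PADI genes or to act with PADI4, 2 of 15 rose and 3 fell on overexpression. That is 33.3% called, fewer than the 50.3% of all genes. With the replicate block 4 rose and 8 fell, while with replicates 1 and 2 summed 2 of the 15 were called, both risen. CEBPB, a factor of granulocyte and macrophage differentiation, went from 46.7, 47.9 and 27.9 to 131.6, 134.0 and 65.3 CPM (1.44 ± 0.31, adjusted p 0.00641), with replicate 3 lowest in each group. NFYC, HDAC1 and SIN3A fell by 0.49, 0.23 and 0.23 (adjusted p 0.00453, 0.0261 and 0.0265); without vector replicate 2, or without overexpressing replicate 1 or 2, 1 gene of the list fell, as under library-total scaling. On knockout 8 of 14 fell and HDAC1 rose by 0.12, which 4 of the 6 libraries, left out in turn, ended. MYB and SPI1 fell by 0.35 each (adjusted p 1.22e-05 and 1.37e-05), SP1 by 0.26 ± 0.0463. Without parental replicate 3 the count of fallen genes was 5.

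Genes of arginine methylation, which modifies the residue the deiminases convert, mostly fell on overexpression. The list holds the methyltransferases and other genes, among them JMJD6 and WDR77. Of 13 tested, JMJD6 rose (0.54 ± 0.0866) and 9 fell (median -0.25). PRMT5 went from 229.0, 233.2 and 220.1 to 138.0, 137.3 and 132.9 CPM (-0.74 ± 0.0626, adjusted p 7.14e-05), its partner WDR77 fell by 0.71, PRMT3 by 0.92 and PRMT1 by 0.76. The count of fallen genes was 5 without vector replicate 1 or replicate 2, under library-total scaling and with replicates 1 and 2 summed. On knockout 4 of 13 rose and none fell in the edgeR fit (1 at an unadjusted p under 0.05, 0 by DESeq2 and by limma): WDR77 by 0.33, PRMT7 by 0.24, PRMT5 by 0.17 and PRMT6 by 0.19 (adjusted p 0.000735 to 0.0264), with 2 risen without knockout replicate 1.

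Of 26 genes that supply or sense calcium, 6 rose and 3 fell on overexpression (median 0.05). That is 34.6% called, fewer than the 50.3% of all genes. With the replicate block 11 rose and 6 fell. Under library-total scaling 11 rose and 3 fell, and with replicates 1 and 2 summed 4 rose and 2 fell. The ATP-gated channels P2RX1 and P2RX7 rose by 1.22 ± 0.113 and 1.05 ± 0.135, and TRPM2, a channel opened by oxidative stress, by 0.46 ± 0.0745. CRACR2A, a regulator of store-operated entry, fell by 0.78 ± 0.0952, CALM2, a calmodulin gene, by 0.49 and ATP2A2, a pump of the endoplasmic reticulum, also by 0.49. On knockout 6 rose and 5 fell, with 3 fallen without knockout replicate 1 or parental replicate 1. STIM1, the calcium sensor of the endoplasmic reticulum, went from 41.6 ± 0.508 to 68.5 ± 2.64 CPM (0.72 ± 0.0506, adjusted p 1.14e-08), PLCG1 rose by 0.70 and ORAI2 by 0.29. The channel ORAI3 and P2RX7 fell by 0.43 and 1.08, and ITPR1, ATP2B1 and STIM2 by 0.31, 0.18 and 0.21.

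Of the enzymes and carriers of free arginine and citrulline, 10 were tested on overexpression, 5 rose and 3 fell (median 0.80). ASS1, which joins citrulline to aspartate, had 0, 0 and 3 counts in vector and 113, 181 and 162 in overexpressing libraries (ratio 147.5, 95% counting interval 50.2 to 718.0; adjusted p 3.64e-05). The arginine carrier SLC7A2 had 3 and 92 summed counts (ratio 29.8, 9.87 to 147.0). DDAH2, which forms citrulline from methylated arginine, rose by 1.12 ± 0.153, NOS3 by 1.38 ± 0.225 and GATM by 1.77 ± 0.35, while CPS1, SLC7A1 and SLC3A2 fell by 0.56, 0.28 and 0.19. Without overexpressing replicate 1 or 2, and under library-total scaling, 1 gene fell. On knockout none of 8 tested rose by edgeR (0 also at an unadjusted p under 0.05, by DESeq2 and by limma). The 2 that fell were the carrier subunit SLC3A2 (-0.70 ± 0.0566, edgeR adjusted p 1.58e-07) and the carrier SLC7A1 (-0.54 ± 0.0507, edgeR adjusted p 3.63e-07).

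**Figure D4:**
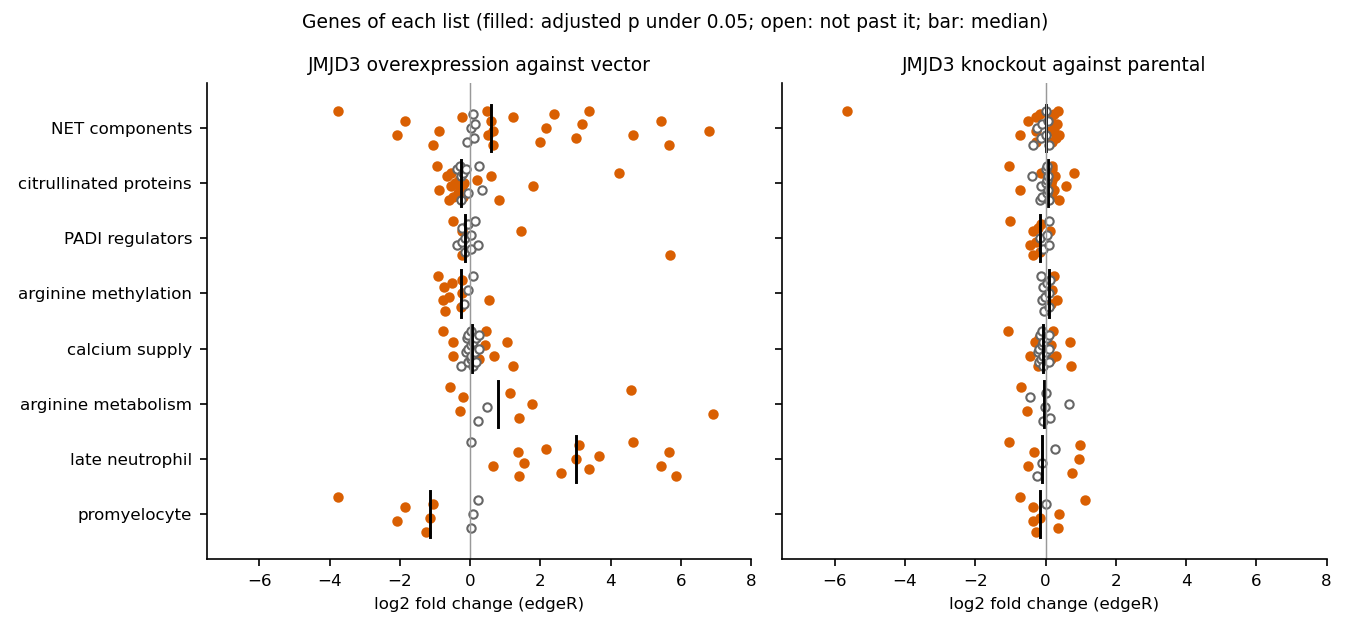
edgeR log2 fold change of the tested genes of 6 pathway lists and 2 marker lists on overexpression (left) and knockout (right), filled where the adjusted p was under 0.05, with the median as a bar. On overexpression the NET list spans -3.75 to 6.81 with a median of 0.59 and the late neutrophil list has a median of 3.01, while on knockout list medians lie near 0.

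Markers of other cell types are given beside PADI4, and their part in its level was not tested. Among all genes tested, 26.4% rose and 23.9% fell on overexpression. Late neutrophil markers rose in 14 of 15 tested on overexpression and fell in none (edgeR, also 0 at an unadjusted p under 0.05, by DESeq2 and by limma on FPKM). Some of them, such as MMP9, CRISP3 and CXCR1, stood at 0.045, 0.0961 and 0.0698 CPM in vector cells. These passed the filter through the overexpressing libraries and could only be called risen, so the count is partly set by the filter. The same holds for genes of the other lists near 0 in vector cells. On knockout it holds for genes near 0 in either group. PAX5, with 67 counts in parental and 6 in knockout libraries, could only be called fallen. The summed level over 26 genes was 117 to 133 CPM in vector and 1226 to 1264 CPM in overexpressing libraries, with LTF and CD177 at 0 in the latter. S100A9 alone held most of that rise (35.6 ± 0.47 and 882.7 ± 18.4 TMM-scaled CPM), and the markers that did not pass the filter, such as MMP8, LCN2 and OLFM4, stood at 0.109 CPM or below in both groups. Of the defining neutrophil receptors, FCGR3B was near 0 in vector and overexpressing cells (0.0203 ± 0.0179 and 0.0454 ± 0.0234 CPM), and CXCR2 stood at 27.8 ± 1.68 and 28.4 ± 0.922 CPM. Monocyte and macrophage markers rose in 7 of 9 and C1QA fell by 2.44; the sums were 28.4 to 30.9 and 56.7 to 58.6 CPM over 20 genes. Eosinophil, basophil and mast cell markers rose in 7 of 13, CLC from 69.5 ± 4.01 to 940.3 ± 38.9 CPM, and PRG2 and RNASE3 fell by 0.40 and 1.68; the sums were 2556 to 2781 and 3245 to 3493 CPM. Lymphoid markers rose in 5 of 9, among them CD79B, IL7R, CD4 and NKG7, with MS4A1 and CD8A at 0, and their sums were 213 to 227 and 318 to 331 CPM.

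Skin genes, among which PADI1 and PADI3 are usually found, hardly registered: 4 of 12 passed the filter, TGM3 rose from 0.23 ± 0.194 to 3.88 ± 0.708 CPM, and the list summed to 11.9 to 17.2 and 14.2 to 20.2 CPM. The markers that define HL-60 as promyelocytic were present, at 18281 to 22578 CPM in vector and 10633 to 11793 CPM in overexpressing cells, 6 of 9 falling and none rising (edgeR; also 0 at an unadjusted p under 0.05, by DESeq2 and by limma; 2 rose with the replicate block), with ELANE the exception at the detection limit. On knockout, where PADI4 did not differ beyond its spread, 17.6% of all genes tested rose and 20.2% fell. Late neutrophil markers rose there in 3 of 9 (CXCR2 0.74, MMP25 0.97, S100P 0.95) and fell in 3 (S100A9 0.51, CSF3R 0.32 and FPR2 1.04 lower on the log2 scale). Monocyte markers rose in 6 of 11, C1QA from 3.41 ± 0.724 to 54.1 ± 1.97 CPM. Eosinophil, basophil and mast cell markers rose in 5 of 11 and PRG2 fell by 1.09, lymphoid markers rose in 5 of 7 and CD4 and PAX5 fell by 0.30 and 3.10, skin genes rose in 1 of 4 (KRT10, 0.57), and promyelocyte markers rose in 3 of 9 (CEBPA, MYC and PRTN3 by 1.12, 0.38 and 0.35) and fell in 5.

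The genes whose levels over the 12 libraries were most like those of PADI4, by Pearson r of log2(CPM + 0.5), were KRT86 (0.995), TRIM16 (0.994), STX3 (0.994), CPXM1 (0.994) and FSCN1 (0.993). This is a description: 389 of 11541 genes compared had an r above 0.95, the 12 libraries fall into overexpressing and other cells, and 1 of the 5 names was shared when the pseudocount was 0.1 or FPKM was used. STX3 stood at 68.7 CPM in overexpressing cells and at 33.2, 35.7 and 36.5 CPM in vector, parental and knockout cells, whereas KRT86 stood at 6.47 CPM and at 0.0512, 0.114 and 0.0911 CPM. For PADI2 the highest values ran from PXMP2 (0.849) through PGBD1, UBAP1L and CD79A to PGAP3 (0.793), none of the 11541 genes was above 0.95, and 0 of the 5 were shared with FPKM.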

How the data were processed

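Bulk RNA-seq of 12 HL-60 libraries was grouped by sample titles. Trizol RNA went into a TruSeq kit without strand marking, per the labels' protocols. RSEM, TopHat2 2.0.4, CASAVA 1.8, edgeR and GRCh38 are named in the submitters' processing notes without a role. For each comparison there is 1 table, scaled on its own. The count columns the authors deposited hold, judging from the values, expected counts multiplied by a factor per library (0.772 to 1.1972), as RSEM would give them before that scaling. They were divided by that factor, which left 92.9% to 94.1% of values up to 1000 whole within 0.02, and rounded. The deposited FPKM columns, per the file headers, gave levels per length and implied lengths. The authors' deposited log2 fold changes and p-values were used only where named. 13 lines without values were left out of the overexpression table.

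Each comparison was fitted on its 6 libraries with edgeR 4.0.16 (R 4.3.3; TMM, filterByExpr, quasi-likelihood test with robust dispersion, threshold 0.05 on the p adjusted by Benjamini-Hochberg), tested on simulated data first. Values after ± are SE beside a fold change and SD over 3 libraries beside a level. Member levels are CPM of the library total, and those of other genes TMM-scaled CPM, summed levels apart. Counting intervals are exact (Clopper-Pearson) at 95%, and the limit for 0 is 3 counts. Implied lengths were calibrated on genes with 1 transcript of 800 to 8000 nt and 50 or more counts. Members, gene lists and tests were chosen with earlier results of these data known. Named were the 5 family genes, KDM6B, per list up to 4 genes by p on overexpression and 3 on knockout with all genes of counts up to 5, called neighbours, and the 5 genes most like PADI4 and PADI2; ELANE, FCGR3B, MMP9, CAMP and the markers at or near 0 were added after their values were seen, and some genes counted in the lists are not reported here by name. DESeq2 1.42.0, limma 3.58.1 on log2(FPKM + 1) or (FPKM + 0.1), other scalings, filters and libraries left out were alternatives.

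Replicate numbers, from the titles, were checked as pairs by the correlation of same-numbered deviations from the group means. These were 0.199, 0.238 and 0.553 for overexpression, and crossing replicates 1 and 2 gave 0.203 and 0.255. Replicate 3 thus went with replicate 3 there, while replicates 1 and 2 could not be matched by number. For knockout the same-numbered correlations were 0.0359, -0.123 and -0.0694, so the numbers do not pair.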

Additional observations from a re-analysis of the deposited data

How the results depend on the processing

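Of 234 values recomputed for the gene counts, the neighbour counts and the member fold changes, 206 kept to within 1.5 times, or within 1 SD for a fold change; of 940 for single lists and likeness, 838 did. On overexpression 3786 genes rose and 3421 fell. The fallen count was 2202 under library-total scaling, 1689 with replicates 1 and 2 summed and 5274 with the replicate block, and limma on log2(FPKM + 1) without a filter gave 2371 risen and 1998 fallen. Fallen pathway genes (37) were 24, 20 and 24 under library-total scaling, summed replicates and unfiltered FPKM. PADI4 was 7.59 in the main fit, 6.25 on log2(FPKM + 0.1), and 4.31 on log2(FPKM + 1) with or without a filter, where the added constant by construction understates low genes; 7.57 with the block; PADI2 was -0.12, and 0.02 under library-total scaling.

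On knockout 2497 genes rose and 2860 fell. On log2(FPKM + 0.1), log2(FPKM + 1) and the latter unfiltered, 1542, 1513 and 959 rose and 1312, 1297 and 988 fell. Pathway genes went from 32 risen and 25 fallen to 18 and 14, 17 and 14, and 7 and 13, and called neighbours from 5 to 3 without a filter. PADI2 went from 0.25 to 0.14 on log2(FPKM + 1) with and without a filter. Replicates 1 and 2 only, chosen after seeing the data, gave 1566 risen genes. The cause of these moves was not tested. On knockout, where numbers do not pair, the replicate block gave 2117 risen and 2480 fallen genes and PADI2 at 0.25. On overexpression the block moved no other count of the text by over 1.5 times except those given beside their lists.

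With each library left out in turn, PADI4 ranged from 7.13 to 8.27 and PADI2 from -0.19 to -0.08 on overexpression and from 0.21 to 0.32 on knockout. PADI4 on knockout and PADI3 did not pass the filter; fitted without it, PADI4 was -0.15 ± 0.49 on knockout and PADI3 1.32 ± 1.1 on overexpression and 2.07 ± 1.12 on knockout. Depth limits PADI3, PADI1 and PADI6, and PADI4 outside overexpressing cells, to counting intervals, and the sequence windows could not be varied.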
